A study of Mus musculus with 12 samples.

Results

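Rab GTPases are small GTP-binding proteins that give intracellular membranes their identity. Each Rab cycles between a GDP-bound form held in the cytosol by an escort protein and a GTP-bound form that sits on one membrane and recruits effectors, which tether, move or fuse vesicles there. Exchange factors switch a Rab on and GTPase-activating proteins switch it off. In microglia, the resident macrophages of the brain, this traffic carries phagocytosed material to lysosomes, recycles surface receptors and delivers secreted proteins.

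The genes described here are those whose symbol in the deposited peak tables is Rab followed by a number and at most a letter and a digit, so Rab effectors and Rab-like genes are left out. They took 91 of the 26706 peaks of Rpb2, a core subunit of RNA polymerase II, and 164 of the 55862 peaks of H3K27ac, an acetylated histone residue found at active promoters and enhancers. The Rpb2 peaks belonged to 37 Rab genes and the H3K27ac peaks to 50. In all, 35 genes had peaks of both marks. *Rab22a* and *Rab42* had Rpb2 rows alone, while H3K27ac peaks across their starts carried other names. The 15 genes with H3K27ac rows alone were *Rab13*, *Rab17*, *Rab23*, *Rab25*, *Rab27b*, *Rab33a*, *Rab34*, *Rab35*, *Rab36*, *Rab38*, *Rab3b*, *Rab3c*, *Rab3d*, *Rab44* and *Rab7b*. Of the 59 protein-coding Rab genes in RefSeq, 7 had no row of their own name: *Rab15*, *Rab26*, *Rab30*, *Rab39b*, *Rab40b*, *Rab6a* and *Rab9b*.

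Microglia were sorted from brains of 2-mo-old C57BL/6J mice, either *Cx3cr1*-WT or KO, the latter homozygous for an *eGFP* insertion that disrupts the fractalkine receptor gene, and both genotypes were littermates. Chromatin was immunoprecipitated from pools of 3 mice of 1 sex. By their labels there was 1 female and 1 male pool per genotype and mark, so each genotype had n = 2 pools. Since the deletion is present from the germ line in every cell, a difference need not begin in microglia. The spread between the pools of a genotype also holds any difference between the sexes.

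Rpb2 libraries held 11662185 to 44332626 reads, of which 11.2% to 15.1% lay in peaks, and H3K27ac libraries 10395804 to 21134403 reads. Peaks took 61.1% to 65.3% of the reads in 3 H3K27ac libraries and 15.9% in the WT female. The Rpb2 library labelled WT female held 136 reads at Y-linked genes, where the KO female held 0 and the WT male 214; its label was kept, and values without it are given where they change a call. All 10 microglial marker genes examined had Rpb2 peaks, which summed to 8915 to 9406 CPM (counts-per-million of the reads in peaks) per library, and all 10 had H3K27ac peaks, summing to 3672 to 5868. In Rpb2, 0 of 5 neuronal, 0 of 4 astrocytic and 0 of 5 markers of other leukocytes had a peak. For oligodendrocytes 2 of 4 had one, at 131 to 166 CPM in sum, and for endothelium 2 of 3, at no more than 60.1 CPM in the KO pools and 71.8 and 87.9 in the WT pools. In H3K27ac, the sums were 17.7 to 59.3 CPM for 3 of 5 neuronal markers, 0.0 to 14.4 for 2 of 4 astrocytic, 323 to 376 for 4 of 4 oligodendrocytic, 198 to 260 for 3 of 3 endothelial and 38.7 to 78.8 for 2 of 5 leukocyte markers. The part of other cells in the Rab values was not tested, and a lower level in a pool cannot tell less binding per cell from fewer cells of a type.

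The promoters that the values below turn on are shown as the 150 bases before a RefSeq start (build GRCm38.p6, the same assembly as mm10), read 5′ to 3′ on the gene's own strand. For *Rab5b* that start lies inside the RefSeq gene, whose outer end is at 128696284, so the last bases shown overlap the gene. Capitals mark the motifs that were searched. *Rab8b* (chr9:66919706-66919855, minus strand) had the highest Rpb2 level of all Rab promoters. *Rab39* (chr9:53706233-53706382, minus strand) had the highest H3K27ac level among Rab peaks centred within 1000 bp of a TSS. *Rab11a* (chr9:64737757-64737906, minus strand) and *Rab5b* (chr10:128696269-128696418, minus strand) were among the promoters with the lowest p values, on either side of 0. *Rab20* (chr8:11478641-11478790, minus strand), among the highest in Rpb2, is shown for its E-box.
Rab8b: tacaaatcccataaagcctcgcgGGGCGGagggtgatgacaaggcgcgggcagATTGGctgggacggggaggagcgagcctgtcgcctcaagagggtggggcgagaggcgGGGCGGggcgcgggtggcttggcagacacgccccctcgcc
Rab39: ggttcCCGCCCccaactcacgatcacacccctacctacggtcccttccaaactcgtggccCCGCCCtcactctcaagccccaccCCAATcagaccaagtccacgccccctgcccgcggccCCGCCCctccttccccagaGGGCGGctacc
Rab11a: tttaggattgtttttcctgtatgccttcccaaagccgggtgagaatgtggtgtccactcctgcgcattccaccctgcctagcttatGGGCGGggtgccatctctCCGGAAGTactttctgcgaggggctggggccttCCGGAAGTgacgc
Rab5b: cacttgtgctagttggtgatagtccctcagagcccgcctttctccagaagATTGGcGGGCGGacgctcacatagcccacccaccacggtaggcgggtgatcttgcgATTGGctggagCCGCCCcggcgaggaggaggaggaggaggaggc
Rab20: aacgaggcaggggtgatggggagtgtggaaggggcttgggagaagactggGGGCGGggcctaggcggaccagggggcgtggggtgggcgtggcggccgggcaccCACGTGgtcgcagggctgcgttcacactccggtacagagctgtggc

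These stretches are rich in G and C, at 57.3% in *Rab11a*, 64.0% in *Rab5b*, 69.3% in *Rab39*, 70.7% in *Rab8b* and 71.3% in *Rab20*. *Rab8b* holds 2 GC boxes (GGGCGG, the letters bound by Sp factors) and 1 CCAAT box, *Rab5b* 2 of each, and *Rab39* 4 GC boxes and 1 CCAAT box. *Rab11a* holds 1 GC box and a pair of ETS motifs (CCGGAAGT), while *Rab20* holds 1 GC box and an E-box (CACGTG, the letters of bHLH factors such as the lysosomal regulator TFEB). RefSeq gave 300-base windows, from 250 before to 50 after a start, for 48 of the 59 Rab genes, 60 windows in all. Searched on both strands, the GC box lay in 41 of 60 Rab windows (68.3%), against 35.7% of all 32851 windows. The CCAAT box lay in 43.3% against 37.4%, the E-box in 10.0% against 7.15%, the ETS motif in 3.33% against 3.89%, and GAGGAAGT, a form bound by the myeloid factor PU.1, in 3.33% against 3.20%. The median Rab window was 61.2% GC and the median of all windows 52.7%, and a GC-rich window holds GGGCGG more often by composition alone. Of these motifs none contains another, and a match is a run of letters rather than a site.

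Rpb2 sat at most promoters of the Rab genes that serve the early endosome and at few of those for regulated secretion. Counting peaks centred no farther than 1000 bp from a transcription start site (TSS), 34 of 59 Rab genes had an Rpb2 peak (57.6%), against 35.2% of 21900 RefSeq protein-coding genes. The genes were grouped by the compartment their protein is best known for. All 9 early and sorting endosome genes had a promoter peak, as did 8 of 12 for the endoplasmic reticulum and Golgi and 6 of 10 for recycling endosomes and the plasma membrane. The same held for 4 of 9 late endosome and lysosome genes, 3 of 12 for regulated secretion and lysosome-related organelles, and 4 of 7 others. H3K27ac peaks had their centre within 1000 bp of the TSS, or reached across it, at 39 of 59 Rab genes (66.1%), against 44.0% of the 21900. By compartment these were 8 of 9 early endosome genes, 9 of 12 for the endoplasmic reticulum and Golgi, 8 of 10 recycling genes, 5 of 9 late endosome genes, 5 of 12 secretory genes and 4 of 7 others.

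Paralogues with related functions differed in whether they carried a peak. *Rab32*, which serves lysosome-related organelles, had a promoter peak of Rpb2 with 70, 91, 418 and 160 reads in the WT female, WT male, KO female and KO male, the order used throughout. Its closest relative *Rab38* had no Rpb2 row. *Rab27a*, a secretory granule Rab, had 37, 9, 192 and 60 Rpb2 reads at its promoter, and *Rab27b* had no Rpb2 row. Among the *Rab3* genes of regulated exocytosis, *Rab3a* had 62, 102, 142 and 108 reads, while *Rab3b*, *Rab3c* and *Rab3d* had no Rpb2 row. *Rab11a* and *Rab11b*, both of the recycling endosome, had promoter peaks, and their epithelial relative *Rab25* had no Rpb2 row. Absence from a table of called peaks says only that no reproducible peak was called.

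Some of the missing genes share a start with a neighbour whose name the peak took. A peak across the start of *Rab6a*, a Golgi Rab, was named *Mrpl48* and held 89, 151, 237 and 164 Rpb2 reads. The peak across the RefSeq gene start of *Rab13* (chr3:90213715), named *Rps27rt*, held 440, 392, 1300 and 598, and that across *Rab33a*, named *Aifm1*, held 22, 49, 86 and 78. Peaks named *Rab13* rest on another start of the gene, downstream of this one. Its H3K27ac peak at chr3:90220735-90221235 is centred 201 bp from that start. Peaks named 4632427E13Rik and 1110006O24Rik lay within 1000 bp of the starts of *Rab30* and *Rab35*, with 54, 55, 266 and 125 reads and 151, 169, 443 and 223 reads. The gene that transcribes through such a shared peak cannot be told from the counts, and these peaks are not counted among the Rab peaks. With them, and with *Rab13* counted by its RefSeq gene start, Rpb2 would stand at 11 of 12 genes of the endoplasmic reticulum and Golgi. It would stand at 8 of 10 recycling genes and 39 of 59 in all, with the other compartments as above. In H3K27ac, the peak across the start of *Rab42* was named *Snhg12*, was 8705 bp long and held 357, 881, 1852 and 1742 reads, and that across *Rab22a*, named *Ppp4r1l-ps*, held 45, 52, 114 and 48. With peaks of other names that reach within 1000 bp of a start, H3K27ac would stand at 46 of 59 Rab genes. These include *Rab40b* through a peak named Mir7236, with 3, 6, 9 and 32 reads, that does not cross its start. No share over all genes was counted this way for either mark. The log2 fold changes of KO over WT at the 5 Rpb2 peaks ran from -0.54 ± 0.36 (SE) at *Mrpl48* to 0.44 ± 0.41 at 4632427E13Rik, with adjusted p values of 0.634 to 0.998. At Rab peaks themselves, 2 of the 42 Rpb2 peaks near a TSS were annotated to another gene, *Rab22a* to *Ppp4r1l-ps* and *Rab24* to *Prelid1*.

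Where a promoter peak was present, the median Rab level was above the median of all promoter peaks, with a wide spread between genes. Levels are given as CPM per kb of peak, scaled to the reads in peaks near a TSS, and 1 peak, the one with most reads, stands for a gene. The median Rab promoter had 393 CPM per kb of Rpb2, the median of all 10125 peaks near a TSS had 279, and 21 of the 34 Rab genes were above that. With 1 peak for each of 8350 genes, as for the Rab genes, the median of all was 307 CPM per kb, and 20 of the 34 were above it. A median splits all genes evenly by definition, so this count is not far from the share over all. The highest was *Rab8b*, which moves vesicles from the trans-Golgi to the cell surface, at 1138 ± 180 CPM per kb in WT and 1351 ± 73.2 in KO (SD, n = 2 pools each), at percentile 96.7 of all promoter peaks. *Rab14*, of the Golgi to endosome route, had 1018 ± 114 and 1123 ± 263. *Rab2b*, of the early secretory pathway, had 931 ± 102 and 1125 ± 155. *Rab20*, which associates with macrophage phagosomes, had 1040 ± 202 and 1015 ± 240. *Rab7*, the Rab of late endosomes and their fusion with lysosomes, had 943 ± 366 and 948 ± 42.4, and *Rab31*, a Rab5 relative of endosomal sorting, had 1071 ± 7.61 and 793 ± 83.9. These 6 promoters lay between percentiles 92.8 and 96.7, and the pools of neighbours in this order overlapped in each genotype, except for *Rab7* and *Rab31* in KO. The lowest were *Rab27a* with 76.8 ± 71.8 and 140 ± 38.8, *Rab9*, of transport from late endosomes to the Golgi, with 87.1 ± 11.5 and 125 ± 27.4, and *Rab4a*, of fast recycling, with 126 ± 54.8 and 52.3 ± 2.33.

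**Figure D1:**
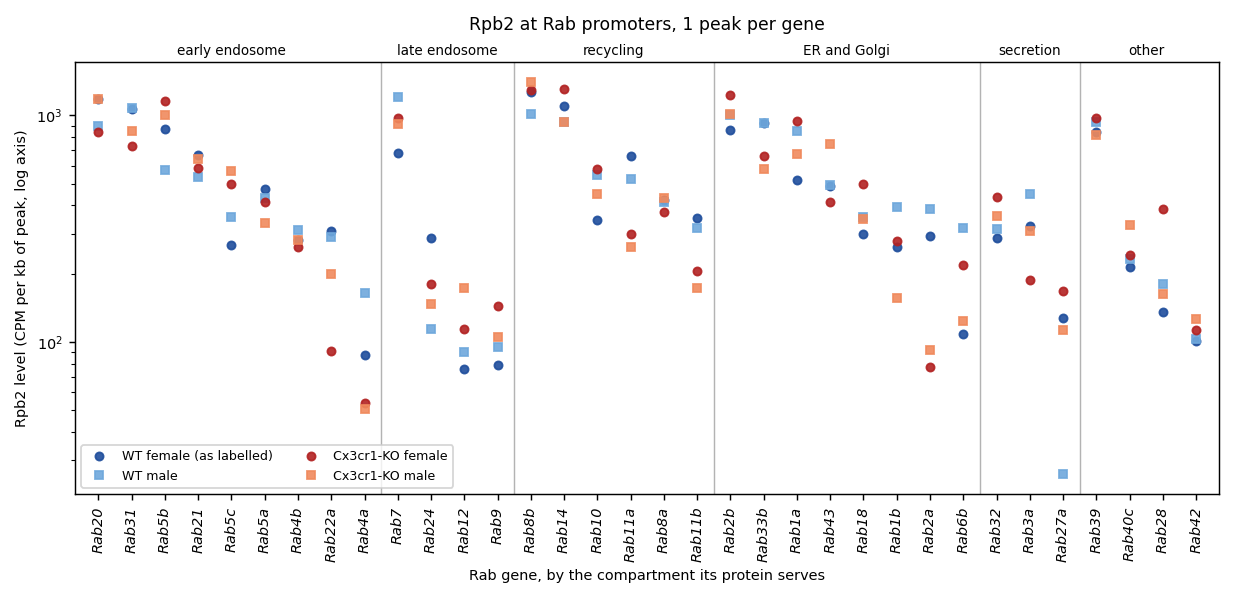
Rpb2 level in CPM per kb of peak (log axis) at the promoter of each of 34 Rab genes, 1 peak per gene, in the 4 libraries, with genes ordered by compartment and by level within it. Blue points are WT pools and red points KO pools, circles labelled female and squares male; levels run from percentile 7.27 of all promoter peaks at *Rab4a* to percentile 96.7 at *Rab8b*, and no gene passed an adjusted p of 0.05.

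No Rab promoter differed in Rpb2 between genotypes at an adjusted p under 0.05 (quasi-likelihood test of edgeR, adjusted by Benjamini-Hochberg across the 10125 peaks near a TSS). This threshold was passed by 0 of 42 Rab peaks and by 0.0% of all peaks. As log2 fold changes of KO over WT, the median was 0.01 for the 42 Rab peaks and 0.02 for all peaks, and 22 of the 42 were above 0. Their fold changes ran from -2.004 to 2.25, and 27 of 42 were within 1.5-fold. At an unadjusted p under 0.05, 3 Rab peaks were higher in KO, where 4.42% of all peaks were, and 4 were lower, where 6.13% of all peaks were. WT and KO pools did not overlap at 26 of 42 Rab peaks, against 42.1% of all peaks near a TSS. The sign was the same in the pools labelled female and those labelled male at 27 of 42 Rab peaks (64.3%) and at 56.7% of all. Since the Rpb2 library labelled WT female held reads at Y-linked genes, this compares pairs of pools and cannot be read as agreement between the sexes. The median SE of these log2 fold changes was 0.41.

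The lowest p value was that of *Rab2a*, a Rab of traffic between the endoplasmic reticulum and the Golgi, at chr4:8535552-8535790, centred 27 bp after its TSS. It had 54, 84, 56 and 31 reads, which is 70.3 and 91.8 CPM in the WT pools and 18.5 and 22.1 CPM in the KO pools. Both KO pools were below both WT pools. The log2 fold change was -2.004 ± 0.52 (SE), with an adjusted p of 0.190. A second *Rab2a* peak 528 bp after the TSS had 33.9 and 45.9 CPM in WT and 13.5 and 20.6 CPM in KO (log2 fold change -1.24 ± 0.67, adjusted p = 0.536). H3K27ac at the same promoter was 64.5 and 86.0 CPM in WT and 70.6 and 58.4 CPM in KO, and there the pools overlapped. The paralogue *Rab2b* had a log2 fold change in Rpb2 of 0.28 ± 0.24. Without the library labelled WT female, *Rab2a* had a log2 fold change of -2.18. With all pools, *Rab2a* passed the likelihood ratio test at an adjusted p of 0.0276, as did 125 of all 10125 peaks.

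*Rab43*, another Rab of the Golgi, had a pair of peaks near its TSS with log2 fold changes of opposite sign. The peak 30 bp before its TSS had 121 and 292 CPM in WT and 77.3 and 79.7 CPM in KO (log2 fold change -1.40 ± 0.37, adjusted p = 0.194). It is named after its values were seen, since the peak 767 bp after the TSS had more reads and stood for the gene. The WT pools differed from each other more at this peak than the lower of them from the KO pools. Without the library labelled WT female, the log2 fold change was -1.89, and without the WT male it was -0.63. The peak 767 bp after the TSS had 142 and 143 CPM in WT and 120 and 217 CPM in KO, a log2 fold change of 0.23 ± 0.33 that was -0.25 without the KO male.

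The recycling Rabs *Rab11a* and *Rab11b* both had less Rpb2 in KO pools than in WT pools, without passing the threshold. *Rab11a* had 175 and 138 CPM in WT and 79.3 and 69.0 CPM in KO (log2 fold change -1.07 ± 0.35, adjusted p = 0.270). *Rab11b* had 88.6 and 79.8 CPM in WT and 51.9 and 43.4 CPM in KO (-0.81 ± 0.44, adjusted p = 0.535). In H3K27ac, the log2 fold change at these promoters was 0.05 ± 0.30 at *Rab11a* and 0.47 ± 0.27 at *Rab11b*. *Rab33b*, a Golgi Rab that also takes part in autophagosome formation, had 285 and 286 CPM in WT and 204 and 178 CPM in KO (-0.58 ± 0.24, adjusted p = 0.395). *Rab22a*, of endosomal sorting, had 74.2 and 70.0 CPM in WT and 21.8 and 47.7 CPM in KO (-1.07 ± 0.52, adjusted p = 0.476). This peak was called in WT alone, so its direction leans that way by selection. The KO pools of *Rab22a* differed from each other, and its log2 fold change was -0.58 without the KO female and -1.72 without the KO male.

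The 3 forms of Rab5, the Rab of early endosome fusion, all had promoter peaks of Rpb2, and none passed the threshold. *Rab5b* had 203 and 133 CPM in WT and 269 and 233 CPM in KO (log2 fold change 0.58 ± 0.28, adjusted p = 0.470). *Rab5c* had 53.4 and 71.0 CPM in WT and 99.1 and 114 CPM in KO (0.77 ± 0.40, adjusted p = 0.507). The *Rab5c* peak was called in KO alone, so its direction leans that way by selection. *Rab5a* had 151 and 137 CPM in WT and 132 and 107 CPM in KO (-0.27 ± 0.32, adjusted p = 0.823). Its lower peak, 681 bp after the TSS and called in KO alone, had 13.03 and 14.2 CPM in WT and 25.1 and 20.6 CPM in KO (0.75 ± 0.76, adjusted p = 0.782). A difference among the 3 was not tested. The other peaks at an unadjusted p under 0.05 were a peak 452 bp before the TSS of *Rab1a*, of endoplasmic reticulum to Golgi transport, and a low peak of the neuronal paralogue *Rab6b*. The *Rab1a* peak had 100 and 72.1 CPM in WT and 130 and 175 CPM in KO (0.82 ± 0.35, adjusted p = 0.406), and the main *Rab1a* peak, 41 bp after the TSS, had a log2 fold change of 0.23 ± 0.32. The *Rab6b* peak, 64 bp after the TSS and also called in KO alone, held 0, 7, 47 and 33 reads (adjusted p = 0.465). These 2 peaks are named after their values were seen.

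**Figure D2:**
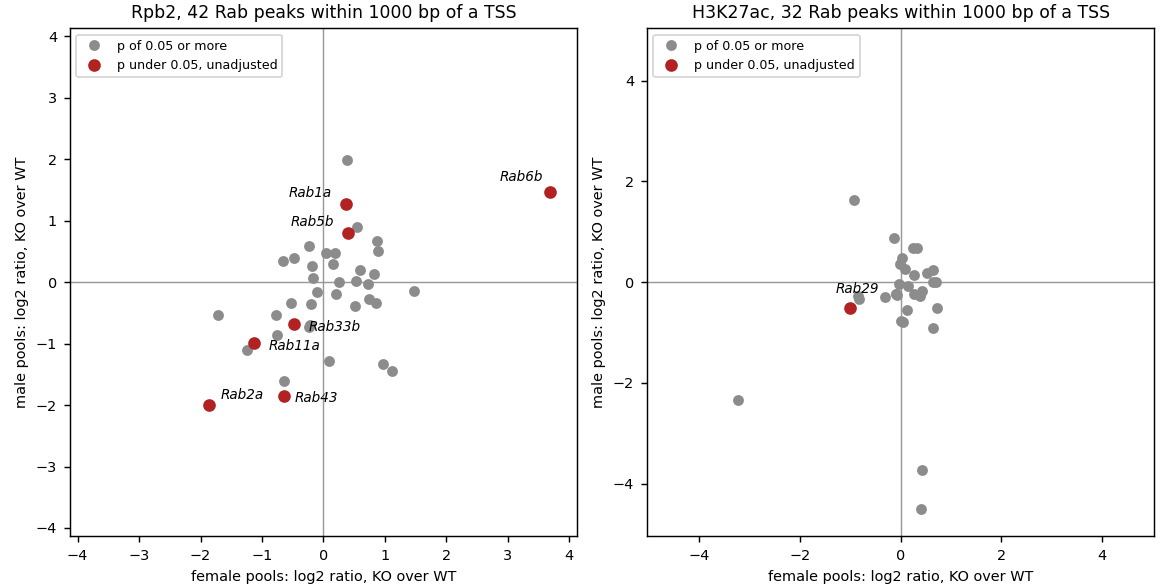
Log2 ratio of KO over WT in the pools labelled female (horizontal axis) and in those labelled male (vertical axis) for the Rab peaks within 1000 bp of a TSS, 42 for Rpb2 (left) and 32 for H3K27ac (right), with red points at an unadjusted p under 0.05. The Rpb2 library labelled WT female held reads at Y-linked genes. *Rab2a*, *Rab11a*, *Rab33b* and *Rab43* lie below 0 in both ratios and *Rab5b*, *Rab1a* and *Rab6b* above 0 in both for Rpb2, *Rab29* lies below 0 in both for H3K27ac, and no point passed an adjusted p of 0.05.

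By compartment, the medians of the log2 fold change in Rpb2 over 1 peak per gene ran from -0.13 to 0.40. The highest of them, from 0.26 to 0.40, rest on 3 or 4 genes each. They were -0.13 for the 9 early endosome genes, -0.04 for 8 genes of the endoplasmic reticulum and Golgi, 0.05 for 6 recycling genes, 0.26 for 4 late endosome genes, 0.40 for 3 secretory genes and 0.29 for 4 others. Over all 8350 genes with a promoter peak the median was 0.01. No compartment had a gene past the threshold.

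Farther than 1000 bp from a TSS, Rpb2 had 49 Rab peaks, and the name there is only that of the nearest TSS. Of these, 26 lay inside the Rab gene itself, 12 inside another gene and 11 between genes. Those inside other genes were peaks of *Rab11a* in *Megf11*, *Rab14* in *Cntrl*, *Rab24* in *Nsd1*, *Rab29* in *Slc41a1* and *Rab33b* in *Naa15*. Only 5 of the 49 were called in both genotypes (10.2%), against 19.8% of all such peaks. Those called in WT alone were 16 (32.7%, against 16.8% of all) and those in KO alone 28 (57.1%, against 63.4%). H3K27ac peaks overlapped 24 of the 49 (49.0%, against 63.4% of all) and 41 of the 42 Rab peaks near a TSS (97.6%, against 98.2%). The exception near a TSS was *Rab12*.

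None of these 49 peaks passed an adjusted p of 0.05 in the fit over all 26706 Rpb2 peaks, a threshold that 0.0121% of the peaks far from a TSS passed. At an unadjusted p under 0.05, 2 were higher in KO, where 8.41% of all were, and 3 were lower, where 4.58% of all were. The median log2 fold change was -0.03, against 0.20 for all 16581. The lowest p value was at a peak that lies in an intron of *Nsd1*, a histone methyltransferase gene, 45970 bp from the start of *Rab24*. It had 20 and 21 reads in the WT pools and none (0) in either KO pool (adjusted p = 0.198). Against a floor of 3 reads per library, that is at least 17.1-fold lower in KO. This peak was called in WT alone, and a peak called in 1 genotype alone entered through that genotype. Its direction and fold bound therefore lean that way by selection, whichever test is used. A neighbouring peak in the same gene, 38591 bp from that start, had WT counts of 0 and 1 and KO counts of 56 and 20 (adjusted p = 0.248). It was called in KO alone, so the same limit holds in the other direction. It passed the threshold with the likelihood ratio test (adjusted p = 0.0141). A peak in the last exon of *Rab1a*, 23331 bp from its TSS, was called in WT alone. It had 25.7 and 30.3 CPM in WT and 3.45 and 11.3 CPM in KO (-1.96 ± 0.73, adjusted p = 0.315). Its log2 fold change was -2.11 without the library labelled WT female, and ran from -3.002 without the KO male to -1.30 without the KO female. In an intron of *Cntrl*, 26861 bp from the start of *Rab14*, a peak had 47.4 and 56.0 CPM in WT and 18 and 30.04 CPM in KO (-1.12 ± 0.45, adjusted p = 0.351). The peak with 20 and 21 reads in WT passed the threshold with DESeq2 (adjusted p = 8.34e-04), with the likelihood ratio test (7.43e-06) and with the newer quasi-likelihood method (0.00466). Over all 26706 Rpb2 peaks these tests called 1022, 924 and 272, so the call of this peak turns on the test. Its fold bound is 18.1 from the library labelled WT female alone and 16.1 from the WT male alone. For peaks far from a TSS, CPM are scaled to the reads in all peaks of the mark.

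H3K27ac at Rab promoters, like Rpb2, had a median level above that of all promoter peaks. The median over 31 Rab genes with a peak centred within 1000 bp of a TSS was 51.2 CPM per kb, against 36.2 for all 9904 such peaks tested, and 20 of the 31 were above that. With 1 peak for each of 9520 genes the median was 37.1, and the same number was above it, where all genes split evenly by definition. The 8 Rab peaks that reach across a TSS from a centre farther away are not ranked here. *Rab39*, a Rab of phagosome and autophagy regulation, had the highest level, at 87.8 ± 22.7 in WT and 87.0 ± 1.02 in KO (SD, n = 2), percentile 97.2 of all. *Rab11b* followed with 66.2 ± 7.45 and 91.6 ± 9.10, *Rab11a* with 72.3 ± 29.8 and 75.3 ± 9.75, *Rab33b* with 80.2 ± 20.7 and 65.4 ± 17.4, *Rab1a* with 64.2 ± 16.1 and 80.8 ± 7.05, and *Rab4b*, of early endosome recycling, with 63.9 ± 3.10 and 77.9 ± 21.03. The pools of neighbours in this order overlapped in each genotype, except for *Rab39* and *Rab11b* in WT and *Rab11b* and *Rab11a* in KO. The lowest were *Rab4a* with 17.5 ± 17.3 and 10.2 ± 8.75, *Rab37*, a secretory Rab of mast cells and macrophages, with 14.2 ± 7.14 and 12.3 ± 3.61, and *Rab23*, a regulator of Hedgehog signalling, with 13.4 ± 9.03 and 5.15 ± 6.69. *Rab4a* was among the lowest promoters of both marks, while its paralogue *Rab4b* was near the middle in Rpb2 and at percentile 90.8 in H3K27ac. Across the 24 Rab genes with both, the levels per kb of the marks had a Spearman rho of 0.56 and a Pearson r of 0.71 on the log2 scale, as a description over genes that share libraries.

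**Figure D3:**
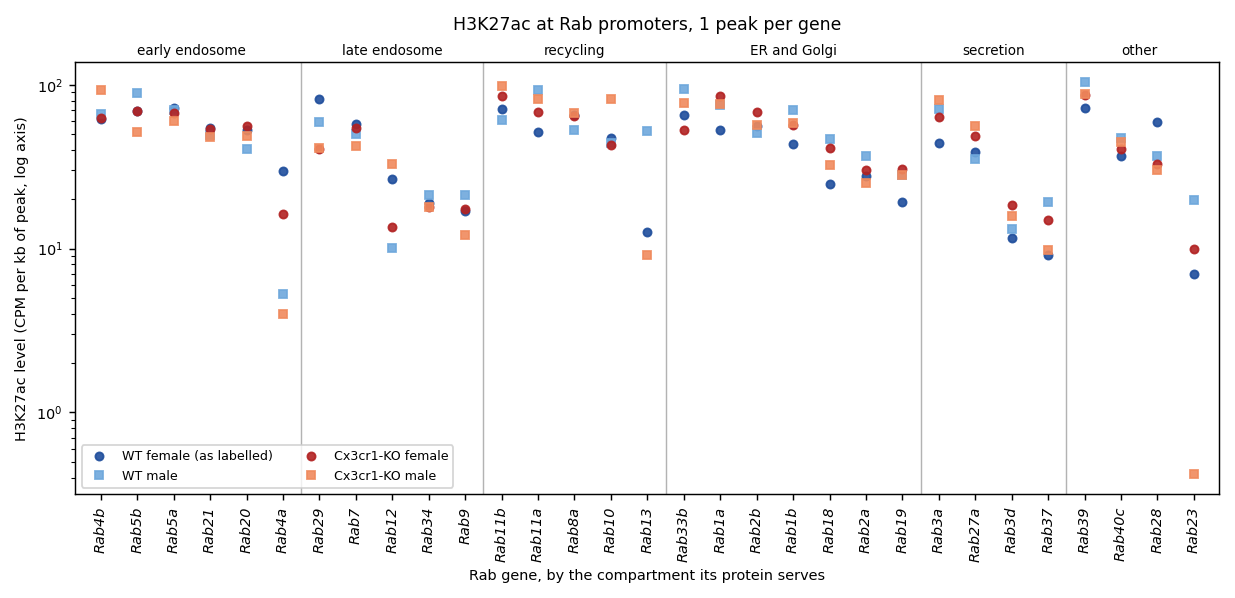
H3K27ac level in CPM per kb of peak (log axis) at the promoter of each of 31 Rab genes, 1 peak per gene, in the 4 libraries, with the same order of compartments and the same colours and symbols as for Rpb2. *Rab39* is highest and *Rab23* lowest, the KO female point of *Rab13* is at 0 reads and so off the log axis, and no gene passed an adjusted p of 0.05.

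In H3K27ac, too, no Rab promoter passed the threshold. An adjusted p under 0.05 was reached by 0 of 32 Rab peaks near a TSS and by 0.0% of all 9904 (edgeR's quasi-likelihood test), and the lowest adjusted p was 0.999 in both. The median log2 fold change was -0.0041 for the Rab peaks and -0.0036 for all peaks, 16 of 32 were above 0, and 26 of 32 were within 1.5-fold. At an unadjusted p under 0.05 there were 0 Rab peaks higher in KO (1.62% of all) and 1 lower (2.26% of all). WT and KO pools did not overlap at 11 of 32 Rab peaks, against 31.6% of all. The median SE was 0.29. The peak at an unadjusted p under 0.05 was that of *Rab29*, a Rab of lysosomes and the trans-Golgi, with 116 and 84.2 CPM in WT and 57.6 and 59.0 CPM in KO (log2 fold change -0.78 ± 0.33, adjusted p = 0.999). Its log2 fold change was 0.14 when libraries were scaled to their total reads, a scaling that raised the median of all promoter peaks to 0.79.

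The next lowest p values were those of *Rab27a*, *Rab11b*, *Rab28*, *Rab5b* and *Rab13*, each with an adjusted p of 0.999. *Rab27a* had 97.2 and 87.7 CPM in WT and 122 and 141 CPM in KO (0.51 ± 0.28). *Rab11b* had 136 and 116 CPM in WT and 162 and 187 CPM in KO (0.47 ± 0.27). *Rab28*, a cilium-associated Rab, had 104 and 64.5 CPM in WT and 58.1 and 53.3 CPM in KO (-0.59 ± 0.35). *Rab5b* had 241 and 308 CPM in WT and 242 and 180 CPM in KO (-0.38 ± 0.27), the opposite sign to its Rpb2 value. *Rab13*, of tight junction traffic, had a 501-bp peak of the WT list alone with 7, 45, 0 and 17 reads. The signs of *Rab28* and *Rab5b* turned positive, like that of *Rab29*, when libraries were scaled to total reads. Of the 24 Rab genes with a promoter peak of both marks, 11 had the same sign of fold change in Rpb2 and H3K27ac.

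Broad H3K27ac domains covered several Rab genes. The widest Rab peak was 14412 bp long and lay in the first intron of *Rab8b*, at chr9:66875949-66890360, 36551 bp after its TSS. It held 570, 1614, 3404 and 3530 reads, or 161, 258, 259 and 283 CPM (log2 fold change 0.37 ± 0.32, adjusted p = 0.847). *Rab43* had a domain of 12099 bp across its TSS with 197 and 224 CPM in WT and 257 and 296 CPM in KO (0.39 ± 0.32, adjusted p = 0.835), the gene whose Rpb2 peak at the TSS was lower in both KO pools. A domain of 9499 bp lay 35999 bp before *Rab11a*, between genes, with 228 and 350 CPM in WT and 354 and 342 CPM in KO (0.27 ± 0.33). Without the WT male, where the WT female stood alone, these 3 domains had log2 fold changes of 0.75 at *Rab8b*, 0.49 at *Rab43* and 0.61 at *Rab11a*. Without the WT female, the *Rab11a* domain had a log2 fold change of -0.02. The lowest value with 1 pool left out was 0.06 at *Rab8b* and 0.29 at *Rab43*. *Rab35*, of fast recycling at the plasma membrane, had 9161 bp across its TSS with 145 and 152 CPM in WT and 155 and 145 CPM in KO (0.01 ± 0.30). *Rab31* had 8849 bp in its first intron with 108 and 138 CPM in WT and 146 and 129 CPM in KO (0.16 ± 0.30). Of the 132 Rab peaks whose centre lay farther than 1000 bp from the TSS, 8 reached across it, at *Rab14*, *Rab31*, *Rab32*, *Rab35*, *Rab43*, *Rab5c*, *Rab6b* and *Rab8b*. Their log2 fold changes ran from -0.17 ± 0.29 at *Rab6b* to 0.54 ± 0.31 at *Rab32*. The sign at *Rab6b* turned when libraries were scaled to total reads (0.33) and without the WT male (0.32) or the KO male (0.07).

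The Rab genes with most H3K27ac peaks were *Rab11a* with 13, *Rab14* and *Rab31* with 11 each, *Rab6b* with 10 and *Rab8b* with 9. In *Rab11a* 4 of the 13 were called in both genotypes, in *Rab14* 5 of 11, in *Rab31* 4 of 11, in *Rab6b* 4 of 10 and in *Rab8b* 3 of 9. The summed width ran from 19974 bp at *Rab6b* to 29136 bp at *Rab8b*.

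**Figure D4:**
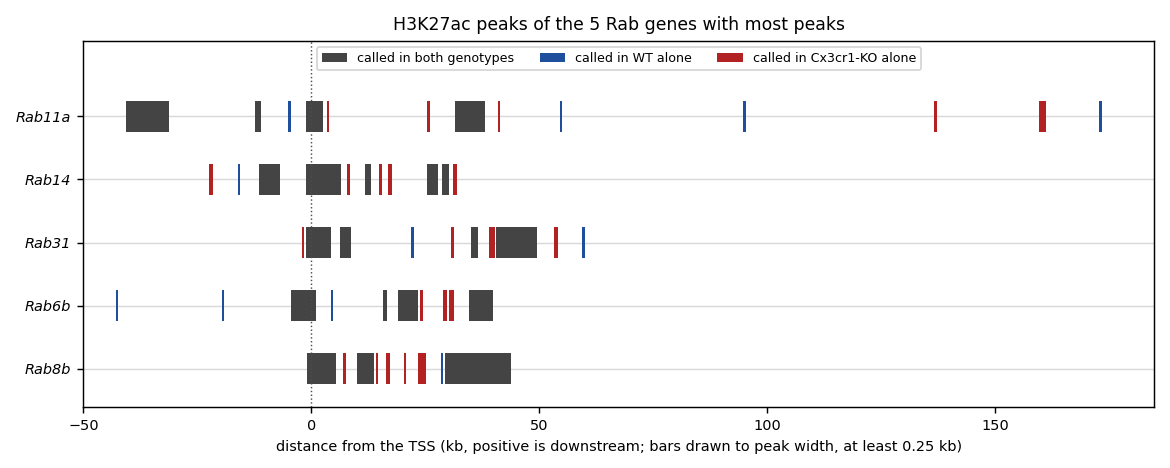
H3K27ac peaks of the 5 Rab genes with most peaks, drawn by their distance from the TSS in kb (positive is downstream) and to their width, with at least 0.25 kb so that narrow peaks can be seen. Grey peaks were called in both genotypes, blue ones in WT alone and red ones in KO alone, and the 14412-bp domain of *Rab8b* was called in both.

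Farther than 1000 bp from a TSS, 0 of 132 Rab peaks of H3K27ac passed an adjusted p of 0.05 in the fit over all H3K27ac peaks, against 0.0283% of all such peaks. At an unadjusted p under 0.05, 1 was higher in KO (1.18% of all) and 4 were lower (4.07% of all). The median log2 fold change was -0.16 for the 132 and -0.40 for all 45894, and it was 0.15 for the 39 Rab peaks called in both genotypes. Among the 132, 41 were called in WT alone (31.1%, against 39.3% of all) and 52 in KO alone (39.4%, against 31.6%). The lowest p value was at a 501-bp peak in the last intron of *Rab7*, 17669 bp after its TSS, with 21 and 35 WT reads and 0 in both KO pools, at least 24.6-fold lower against a floor of 3 reads per library (adjusted p = 0.811). A peak 28000 bp before *Rab12*, a Rab of lysosomal receptor degradation, had 35 and 9 WT reads and 0 in both KO pools, at least 24.2-fold lower (adjusted p = 0.811). That bound rests on the WT female, since the WT male alone gives at least 6.14-fold. DESeq2 called both, at adjusted p values of 0.0170 and 0.0359, as it did 240 of all 55798 H3K27ac peaks. Both peaks come from the WT list alone, so their direction and fold bounds lean that way by selection. A peak 5866 bp after the start of *Rab27a*, in its first intron, had 26.3 and 13.1 CPM in WT and 25.8 and 41.5 CPM in KO (0.79 ± 0.34, adjusted p = 0.811). Without the WT female pool, its log2 fold change was 1.35. A peak of the WT list alone, 538245 bp from *Rab28*, had 35 reads, all of them from the WT female, and 0 in the other 3 libraries.

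Other rows rested on the same library. Over both distances, 43 Rab peaks of H3K27ac came from the WT list alone, with a median of 21 reads in the WT female, 1.0 in the WT male and 0.0 in both KO libraries. In 14 of them the WT male held 0 reads and each KO library at most 3, while the WT female held 12 to 35. The share of such rows over all peaks of the WT list is not given, so no trait of the Rab genes is read from this count. This WT female library is the one with 15.9% of its reads in peaks. Such rows were the only H3K27ac rows of *Rab27b*, whose 3 peaks had 21, 22 and 22 WT female reads and 0 in every other library, and of *Rab3c*, with 22 reads and 0. *Rab38* had 3 peaks and *Rab3b* 1, with WT female counts of 21 to 31, 0 in the WT male and at most 6 in a KO library. *Rab44* had 19, 0, 13 and 1 reads at its single peak. For *Rab27b* and *Rab3c* the peaks in the table therefore rest on 1 library.

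None of the genes for proteins that load, switch and read Rabs passed the threshold over the 4 pools of either mark. Lists of escort and cycle proteins, exchange factors, GTPase-activating proteins and effectors held 137 genes, of which 91 had an Rpb2 promoter peak and 93 an H3K27ac promoter peak. At an adjusted p under 0.05, 0 were called in either mark. The median log2 fold change in Rpb2 was 0.42 for 7 escort and cycle genes, -0.07 for 25 exchange factor genes, -0.13 for 27 GTPase-activating protein genes and 0.03 for 32 effector genes, against 0.01 for all genes. In H3K27ac the medians were -0.04, 0.08, -0.09 and 0.02 over 8, 25, 26 and 34 genes. For 48 other small GTPases they were -0.02 in Rpb2 over 39 genes and 0.17 in H3K27ac over 33.

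In Rpb2, the lowest p value of these lists was that of *Sbf1*, which encodes a pseudophosphatase with a Rab exchange domain, with 112 and 237 CPM in WT and 55.5 and 47.0 CPM in KO (log2 fold change -1.77 ± 0.39, adjusted p = 0.122). It passed the threshold with sex as a block (adjusted p = 0.0224), with DESeq2 (0.0298), the likelihood ratio test (0.00446) and the newer quasi-likelihood method (0.0143). These called 24, 20, 125 and 36 of all 10125 peaks near a TSS. With 1 pool left out, the log2 fold change of *Sbf1* ran from -2.20 to -1.12. *Tbc1d10b*, a GTPase-activating protein, had 54.7 and 28.4 CPM in WT and 5.95 and 4.27 CPM in KO (-2.97 ± 0.79, adjusted p = 0.194), and passed with the likelihood ratio test (0.0157). *Unc13d*, a Rab27 effector in granule release, had 176 and 92.9 CPM in WT and 51.2 and 71.9 CPM in KO (-1.13 ± 0.40, adjusted p = 0.314). In H3K27ac, *Gorasp1*, a Golgi stacking protein, had 155 and 117 CPM in WT and 70.9 and 47.9 CPM in KO (-1.19 ± 0.32, adjusted p = 0.999). Its promoter peak lies 110 kb from *Cx3cr1*, the gene disrupted in the KO, while the closest Rab peak lies 16.9 Mb from it. *Appl2*, a Rab5 effector, had 39.1 and 98.2 CPM in WT and 126 and 127 CPM in KO (0.86 ± 0.36), and *Ccz1*, part of the exchange factor for Rab7, had 43.6 and 54.0 CPM in WT and 83.1 and 83.0 CPM in KO (0.76 ± 0.35), both at an adjusted p of 0.999. Without the WT male, the log2 fold change was -1.39 at *Gorasp1* and 1.70 at *Appl2*. Over all alternatives it ran from -1.51 to -0.27 at *Gorasp1* and from 0.36 to 1.70 at *Appl2*. The Rpb2 peaks of *Gorasp1* had log2 fold changes of 0.12 ± 0.40 and 0.59 ± 0.82.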

How the data were processed

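ChIP-seq of Rpb2 and H3K27ac was analysed in 8 libraries, 2 pools per genotype and mark. The 4 input libraries were not analysed here. Single-end reads were mapped by the authors to mm10 with Bowtie2. They called peaks with HOMER, merged the reproducible WT and KO peaks and deposited raw read counts per merged peak, without normalization. No column of per-sample values was left unused (0). The authors named each peak for its nearest TSS.

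The tests used edgeR 4.0.16 (R 4.3.3, TMM factors, glmQLFit with its default method, glmQLFTest, Benjamini-Hochberg adjustment, genotype alone in the model). SEs are the log2 fold change divided by the root of the F statistic. A peak entered when its mean reached 4 reads in either genotype. Values within 1000 bp of a TSS come from a fit on those peaks, after the authors' methods, and values farther away from a fit on all peaks of the mark. All 255 Rab peaks entered. A prior count of 2 was added for ratios between single libraries, and fold bounds against 0 used a floor of 3 reads per library, which covers counting error only. The fit near a TSS was tried on simulated counts of lower dispersion than the real common dispersions of 0.089 in Rpb2 and 0.147 in H3K27ac. The fit over all peaks was not simulated. Promoters came from RefSeq (GRCm38.p6). File distances were within 50 bp of the distance to the RefSeq gene start for 50 of 74 Rab peaks near a TSS. Python 3.11.15 with pandas 2.3.3 and matplotlib 3.10.9 was used.

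Named peaks were those past the threshold, for each mark the 6 promoters with the lowest p, the 6 highest and 3 lowest levels, the 4 far peaks with the lowest p, the 5 genes with most and the 5 widest H3K27ac peaks, genes in 1 table or none, and the 3 pathway genes with the lowest p. Members and lists were chosen with earlier results of these data known. Nothing in the labels pairs the pools beyond sex, and deviations of same-sex pools correlated at -4.7e-04 and 0.036 near a TSS, so sex was no block. Alternatives were RLE factors, library totals, loess offsets, other filters, DESeq2 1.42.0, the likelihood ratio test, peaks of both lists, a sex block, all peaks in 1 fit, 1 peak per gene and each pool left out. The newer quasi-likelihood method was added after seeing the data. With 2 pools per genotype, p values measure the spread between pools labelled with different sex, and the Rpb2 library labelled WT female held Y-linked reads.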

Additional observations from a re-analysis of the deposited data

How the results depend on the processing

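No Rab peak passed the threshold in the fits as reported, and none did with RLE factors, library totals, loess offsets, either filter, or the peaks of both lists. With sex as replicate block, 0 Rab peaks were called in each of the 4 comparisons, and the medians near a TSS were 0.02 for Rpb2 and 0.02 for H3K27ac, so the pairing by labelled sex changed no Rab call. Among the named pathway genes it brought *Sbf1* in Rpb2 past the threshold (log2 fold change -1.67, adjusted p = 0.0224). Near a TSS in Rpb2, the likelihood ratio test called 2 Rab peaks (*Rab2a* and *Rab43*), and it called 125 of all 10125 peaks. The newer quasi-likelihood method, chosen after seeing the data, called 1 (*Rab43*), and 36 of all. With 1 pool left out, a genotype rests on 1 library, so the calls of those fits are not listed. Farther away in Rpb2, DESeq2 called 1, the likelihood ratio test 2 and the newer method 1, all in *Nsd1*, and leaving out 1 pool gave 0 to 5, with 2 without the library labelled WT female (*Rab1a* and 1 in *Nsd1*) and 5 without the WT male (2 of *Rab14*, 1 of *Rab8b* and 2 in *Nsd1*). Farther away in H3K27ac, DESeq2 called 2 (*Rab7* and *Rab12*), and leaving out 1 pool gave 0 to 14. The 14 arose without the WT male, where the WT female stood alone, and 2 arose without the WT female (*Rab14* and *Rab27a*). Scaling to library totals moved the median of the Rab promoters to 0.20 in Rpb2 and 0.67 in H3K27ac, as it moved that of all promoter peaks to 0.22 and 0.79. Under it the H3K27ac log2 fold changes of *Rab29*, *Rab28* and *Rab5b* changed sign, to 0.14, 0.39 and 0.34. So did that of the *Rab6b* peak across its TSS, to 0.33, while leaving out 1 pool gave -0.53 to 0.32 there. Fold changes near 0 turned more often. The *Rab35* domain had -0.046 with RLE factors, -0.19 with loess offsets, -0.046 with at least 10 reads in every library, -0.046 with DESeq2, -0.040 for peaks of both lists and -0.035 to 0.068 with 1 pool left out. H3K27ac at the *Rab11a* promoter had -0.0031 with loess offsets, -0.0034 with the newer method and -0.32 to 0.55 with 1 pool left out, and the *Rab31* domain -0.015 with loess offsets and -0.0094 to 0.35 with 1 pool left out. Leaving out 1 pool also gave -0.016 to 0.61 at the distal *Rab11a* domain, and in Rpb2 -0.075 to 0.65 at the main *Rab1a* peak and -0.25 to 0.62 at the *Rab43* peak 767 bp after its TSS. In all, 45 peaks with a named fold change were refitted, those of pathway genes and neighbours by a choice made after seeing the data, and 23 of their values under an alternative had the opposite sign, 555 the same sign and side of the threshold, and 30 passed it. With 2 pools per genotype and 3 reads as the smallest count told from 0, low peaks far from a TSS had SEs of up to 7.04 on the log2 scale in H3K27ac.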
